A study of Mus musculus with 36 samples.

Results

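Gene desert DHS are the DNase I hypersensitive sites (DHS) that overlapped no gene body and lay more than 100 kb from every transcription start site (TSS) of the GENCODE vM21 basic annotation on mm10, at any width. There were 633 of them among the 52788 DHS of the table, or 1.20%. The others were 13657 promoter DHS within 1000 bp of a TSS, 21743 DHS inside genes and away from a TSS, and 16755 DHS between genes at 1 to 100 kb from a TSS, called near-gene intergenic DHS here. The rule used the position only and no measured value. At its limit, the desert DHS nearest to a TSS lay 100.2 kb (level 3.73) and 100.3 kb (level 3.74) away, and the nearest DHS outside it lay at 99.87 kb (level 4.53) and 99.86 kb (level 3.92), where a level is the mean log2 normalized read density over all 36 libraries.

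DNase-seq, which sequences the fragments that DNase I releases from open chromatin, was applied to B3, a mouse pre-B lymphocyte line. The Ikaros line was B3 transduced with an MSCV retrovirus that encodes HA-Ikaros-ERt2-IRES-GFP, a fusion of the transcription factor Ikaros with a hormone-binding domain that enters the nucleus when 4-hydroxytamoxifen (4-OHT) is present, and the control line carried the ERt2-IRES-GFP vector without Ikaros. Each line was sampled at 0, 2, 6, 12, 18 and 24 h with 3 replicates, which gave 12 groups and 36 libraries. The labels give 4-OHT at 0.5 uM for every sample, whereas the methods of the study state that the 0 h cells had none and were obtained separately. Both lines derive from 1 cell line and the Ikaros protein comes from a retroviral promoter, which limits them as a model of the normal cell. Promoter DHS were checked against the label of the cell, and 8 of 11 pre-B genes had one, at levels of 3.91 (Rag1) to 5.99 (Ebf1), against 1 of 11 genes of other cell types (Lyz2, 3.29).

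Gene deserts are long stretches without genes. They often flank genes that control development, and the open sites inside them can be enhancers that act over long distances or sites of CTCF, the protein that anchors chromatin loops. DNase I sensitivity marks that a site is open and does not tell which gene, if any, it serves. In what follows the nearest gene is a landmark and not a target.

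The sequences below are those of 9 gene desert DHS on which the results turn, as read from GRCm38 (mm10) on the plus strand. The first 6 differed between the lines at the most times from 2 h to 24 h, the next was the single one lower in the Ikaros line in that period, and the last 2 stand for the highest levels, one of them with a CTCF match. DHS over 300 bp are shown by their central 300 bases. Capitals mark every match, on either strand, of the 11 motifs searched, which were TGGGAA (Ikaros core), CCCNNGGG (Ebf1 core), CAGGTG and CAGCTG (E-boxes), GAGGAAG (PU.1 core), TGTGGTT (Runx core), TGTTTAC (Foxo core), GGGCGG (Sp1), TGANTCA (AP-1), CCGGAAGT (Ets) and the 12-letter CTCF consensus.
chr6:26704527-26704661: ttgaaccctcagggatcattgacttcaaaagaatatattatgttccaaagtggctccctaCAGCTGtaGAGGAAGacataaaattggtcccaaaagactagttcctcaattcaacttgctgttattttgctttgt
chr6:26713389-26713688: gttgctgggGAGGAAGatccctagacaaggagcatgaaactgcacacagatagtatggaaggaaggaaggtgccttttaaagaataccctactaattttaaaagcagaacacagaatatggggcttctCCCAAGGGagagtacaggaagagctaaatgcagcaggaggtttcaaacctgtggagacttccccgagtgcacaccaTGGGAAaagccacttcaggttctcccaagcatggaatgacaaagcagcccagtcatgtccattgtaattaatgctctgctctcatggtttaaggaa
chr14:110892992-110893121: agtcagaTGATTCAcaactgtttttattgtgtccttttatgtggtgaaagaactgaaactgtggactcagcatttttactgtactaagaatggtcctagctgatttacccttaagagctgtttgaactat
chr4:28176816-28177115: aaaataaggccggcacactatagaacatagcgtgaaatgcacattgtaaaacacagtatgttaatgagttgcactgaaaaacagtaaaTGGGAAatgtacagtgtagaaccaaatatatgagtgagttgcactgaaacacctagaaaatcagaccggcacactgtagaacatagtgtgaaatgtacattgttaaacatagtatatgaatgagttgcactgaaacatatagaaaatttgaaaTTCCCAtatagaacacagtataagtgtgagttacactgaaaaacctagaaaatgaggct
chr2:178710748-178710883: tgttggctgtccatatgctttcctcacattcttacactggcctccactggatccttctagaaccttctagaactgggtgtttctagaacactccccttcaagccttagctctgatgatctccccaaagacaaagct
chr1:30584887-30585186: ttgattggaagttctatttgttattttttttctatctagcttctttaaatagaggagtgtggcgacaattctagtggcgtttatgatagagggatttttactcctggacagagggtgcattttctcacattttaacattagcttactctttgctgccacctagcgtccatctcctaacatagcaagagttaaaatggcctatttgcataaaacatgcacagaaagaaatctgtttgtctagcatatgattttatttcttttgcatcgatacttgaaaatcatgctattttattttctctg
chr13:82899720-82900019: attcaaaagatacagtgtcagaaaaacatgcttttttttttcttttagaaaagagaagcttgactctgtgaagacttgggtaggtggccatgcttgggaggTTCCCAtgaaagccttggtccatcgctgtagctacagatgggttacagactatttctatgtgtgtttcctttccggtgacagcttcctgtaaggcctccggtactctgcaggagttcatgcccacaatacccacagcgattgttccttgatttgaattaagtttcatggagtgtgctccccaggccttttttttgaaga
chr9:23567181-23567352: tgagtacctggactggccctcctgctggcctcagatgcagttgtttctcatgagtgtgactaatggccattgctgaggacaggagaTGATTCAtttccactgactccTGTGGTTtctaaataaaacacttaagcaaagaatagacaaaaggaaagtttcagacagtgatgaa
chr6:51168147-51168309: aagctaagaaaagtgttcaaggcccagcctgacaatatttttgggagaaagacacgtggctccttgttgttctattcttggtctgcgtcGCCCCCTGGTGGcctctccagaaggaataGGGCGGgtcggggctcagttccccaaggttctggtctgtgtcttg

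The Ikaros core was present in 3 of these 9 sequences, those of chr6:26713389-26713688, chr4:28176816-28177115, which held it on both strands, and chr13:82899720-82900019. The sequence on chromosome 4 was repetitive, with a 12-base word that occurred 3 times, whereas in the other 8 each such word occurred once. Those at chr1:30584887-30585186 and chr2:178710748-178710883 held none of the letters searched. A match describes the letters and is not evidence of a bound factor.

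Gene deserts took up 186 Mb, or 7.01% of the sequenced genome, and held 3.41 DHS per Mb, against 21.2 DHS per Mb elsewhere. The 633 DHS were spread over 352 deserts, of which 217 held 1 DHS and 24 held at least 5. Chromosome 13 was the densest, with 59 desert DHS in 5.62 Mb of desert (10.5 per Mb), and chromosome X the sparsest among those with any, with 7 in 11.9 Mb (0.588 per Mb). Chromosome 2 had the most, with 65. The median distance to the nearest TSS was 138 kb and the largest 515 kb.

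By median, the desert DHS were smaller and lower than each other class, although little smaller than DHS inside genes. Their median width was 151 bp, against 159 bp for DHS inside genes, 173 bp for near-gene intergenic and 520 bp for promoter DHS. Narrow, meaning at most 200 bp, were 376 of them (59.4%), against 54.2%, 51.7% and 25.6% of these classes. Their median level was 3.48 (middle 50% from 3.11 to 3.83, range 2.14 to 5.18), compared with 3.82 for near-gene intergenic DHS, 3.82 for DHS inside genes and 4.57 for promoter DHS. The highest promoter DHS reached 11.7. The spread between replicates ran the other way. The median SD within a group was 0.39 for desert DHS, 0.33 for near-gene intergenic DHS and 0.23 for promoter DHS, so that single desert DHS were measured with less precision.

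Base composition followed the same order, with a median GC content of 44.3% in desert DHS, 47.8% in near-gene intergenic DHS and 59.0% in promoter DHS. The ratio of observed to expected CpG was 0.164, 0.218 and 0.710. Repeats make up 41.6% of desert sequence and 36.4% of the genome by soft-masking. The median masked share per DHS, which is a different measure, was 10.7% for desert, 11.1% for near-gene intergenic and 9.33% for genic DHS. Of the 633, 199 (31.4%) had no masked base, against 29.6% of near-gene intergenic and 32.75% of genic DHS. Masked over at least 50% were 57 (9.0%), against 7.62% and 6.30%.

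CTCF is the loop anchor named above, and its consensus was found in the central 150 bp of 79 desert DHS (12.5%), compared with 15.0% of near-gene intergenic, 13.3% of genic and 3.38% of promoter DHS, and 11.2% of all DHS. The Ikaros core occurred in 12.6% of desert and 13.1% of all DHS, the E-box CAGGTG in 10.9% and 13.0%, the E-box CAGCTG in 11.8% and 11.9%, the PU.1 core in 10.9% and 10.7%, and the Runx core in 9.64% and 8.29%. For the Ebf1 core, which is bound by a factor that specifies the B lineage, the shares were 7.27% and 10.5%. AP-1 matches were in 4.90% and 4.99%, and Foxo core matches in 1.90% and 1.65%. The clearest gap concerned the GC-rich elements that are typical of promoters, with Sp1 letters in 2.37% of desert and 14.5% of all DHS (41.7% of promoter DHS), and Ets letters in 2 desert DHS (0.316%) and 1.87% of all. Much of this gap was common to the classes away from promoters. Sp1 letters were in 5.18% of near-gene intergenic and 5.01% of genic DHS, and Ets letters in 0.543% and 0.515%. The CTCF-bearing desert DHS had a median level of 3.66 and a replicate SD of 0.35, against 3.47 and 0.40 for the 554 without the letters.

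**Figure D1:**
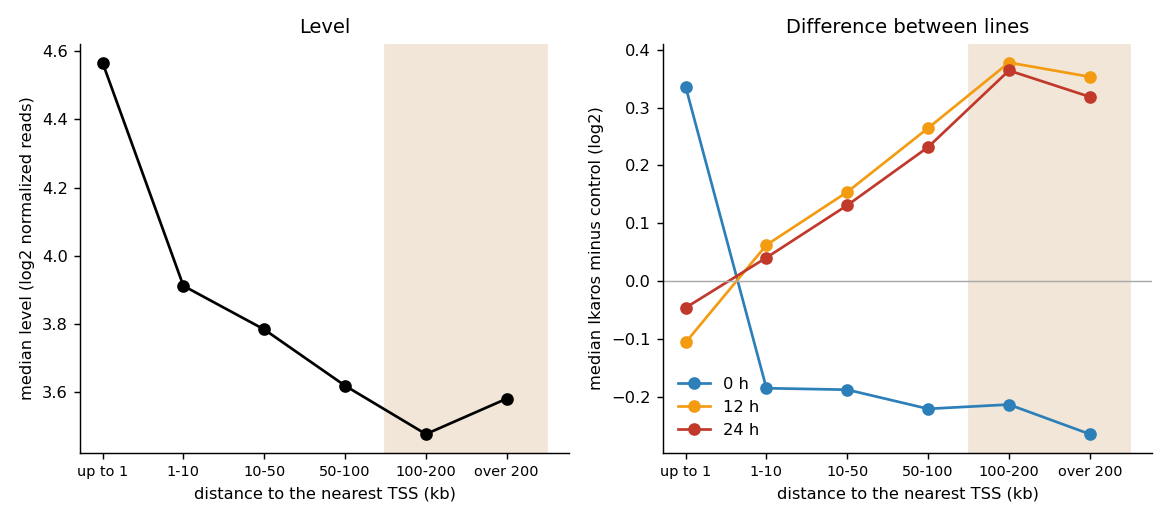
Median level of DHS (left, log2 normalized read density) and median Ikaros minus control difference at 0, 12 and 24 h (right, log2) in bins of distance to the nearest TSS (kb); the first bin holds promoter DHS, the others DHS between genes, and shading marks the 509 and 124 gene desert DHS. Level was 4.57 in the first bin, 3.48 at 100 to 200 kb and 3.58 beyond 200 kb, and the 24 h difference was -0.05, 0.36 and 0.32 in the same bins.

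The highest desert DHS was a 171 bp site at chr9:23567181-23567352, between Bmper, which encodes a binding protein of bone morphogenetic proteins, and the pseudogene Gm3011. Its level was 5.18, with single libraries from 4.46 to 5.83, and its sequence held the Runx core and AP-1 letters. A second DHS of the same desert, at chr9:23570089-23570589, reached 4.92. Next came chr1:102628012-102628521 (5.12), which was 2140 kb from the nearest protein-coding TSS, that of Cdh20, and chr12:16383460-16384004 (5.00), in the desert beside Lpin1, a phosphatidate phosphatase gene. The other members of the top 10 were chr1:122356951-122357465 (4.98), chr12:12580562-12581301 (4.95), chr6:51168147-51168309 (4.94), chr1:146259462-146259979 (4.94), chr18:5819574-5820157 (4.90) beside Zeb1, and chr16:25177903-25178446 (4.83) beside Tprg. The site on chromosome 6 holds the CTCF consensus and lies 102 kb from Mir148a, a microRNA gene known from B cell differentiation. None of the 10 was called between the lines from 2 h to 24 h. At 0 h the site near Mir148a was called, with 4.65, 4.53 and 4.55 in the control line and 5.53, 4.85 and 5.11 in the Ikaros line (0.59 ± 0.19, limma adjusted p = 0.0364), while its values at 24 h overlapped between the lines.

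The 5 DHS farthest from any TSS were of low to middle level. They were chr11:13646332-13646832 (515 kb, level 2.82), chr3:91543665-91544164 (453 kb, 2.97), chr6:9599534-9599664 (453 kb, 3.15), chr2:134029775-134029905 (445 kb, 3.41) and chr1:141991014-141991521 (445 kb, 3.08). None was called between the lines at any time.

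The stretches between genes with the most desert DHS were 5 in number. The first lay on chromosome 2 between Gm26489 and 1700028P15Rik (650.4 kb, 9 DHS), in the neighbourhood of Cbln4, a synaptic protein gene. The next were on chromosome 13 between Mir3961 and 2310067P03Rik (367 kb, 8 DHS), with Mef2c as nearest protein-coding gene, and on chromosome 5 between 4930467D21Rik and Antxr2 (241 kb, 8 DHS). The remaining pair were on chromosome 10 between Gm46190 and Tbc1d32 (889.5 kb, 7 DHS) and on chromosome 2 between Cdh26, a cadherin gene, and Gm14314 (533 kb, 7 DHS). The chromosome 10 stretch was the least open, with a median level of 2.74, against 3.66 to 3.92 in the other 4.

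The order of the lines at desert DHS was not the same at 0 h and later. The library medians over the 633 DHS were 3.64, 3.56 and 3.66 in the control line at 0 h (replicates 4, 5 and 6) and 3.37, 3.50 and 3.35 in the Ikaros line, so that Ikaros was below control without overlap. At 24 h they were 3.37, 3.43 and 3.32 in the control line and 3.73, 3.73 and 3.77 in the Ikaros line, again without overlap and in the opposite order. The same order without overlap held at every time from 2 h to 18 h, with all control libraries between 3.28 and 3.54 and all Ikaros libraries between 3.55 and 3.76, although at 6 h the nearest libraries of the lines were at 3.54 and 3.55. These medians describe the whole set, and a DHS of middle rank in it need not have changed. The reversal between 0 h and 24 h was not particular to deserts. Near-gene intergenic DHS had control libraries at 3.89 to 4.02 and Ikaros libraries at 3.71 to 3.80 at 0 h. At 24 h these were at 3.79 to 3.88 and 3.93 to 3.97. DHS inside genes also reversed without overlap. From 2 h to 18 h the lines overlapped at near-gene intergenic DHS.

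**Figure D2:**
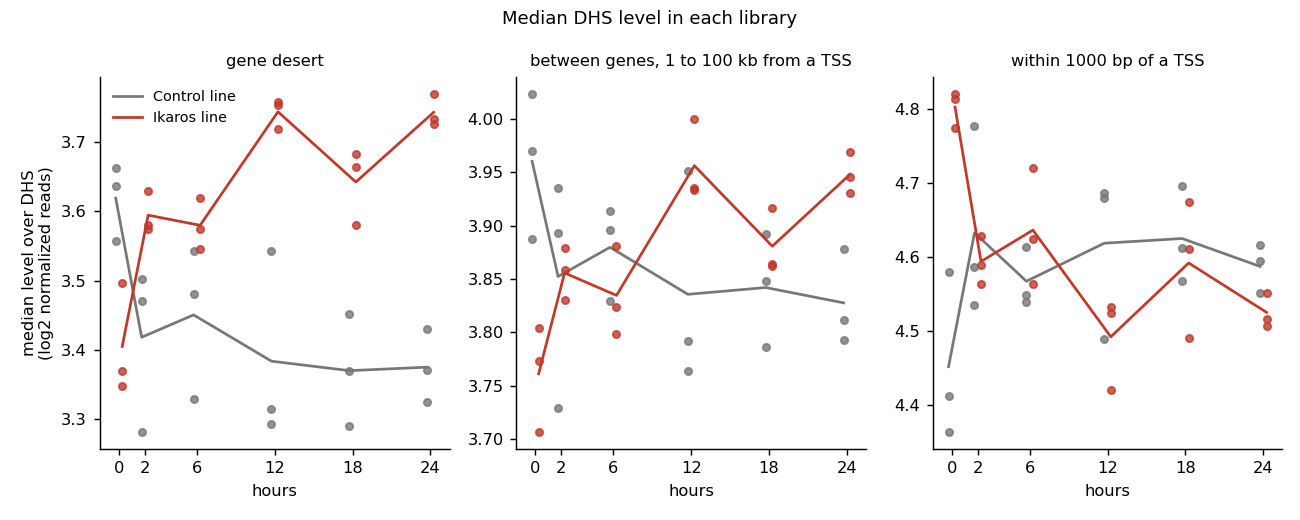
Median level (log2 normalized read density) over the DHS of 3 classes in each of 36 libraries, by hours; points are libraries, lines join group means, and each panel has its own scale. In the gene desert panel the Ikaros libraries lie below the control libraries at 0 h (3.35 to 3.50 against 3.56 to 3.66) and above them at 24 h (3.73 to 3.77 against 3.32 to 3.43). The panel of near-gene intergenic DHS has the same reversal between these times.

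Per DHS, the median difference of Ikaros minus control was -0.22, 0.17, 0.10, 0.37, 0.29 and 0.36 at the successive times. Over all DHS it was -0.06, 0.01, 0.00, 0.05, 0.03 and 0.06, and over near-gene intergenic DHS -0.19, 0.02, -0.03, 0.13, 0.04 and 0.10. At 24 h, 505 of the 633 desert DHS (79.8%) had a positive difference, against 56.0% of all DHS, and at 0 h 230 did (36.3%, against 45.6%). Within replicate numbers, which mark the batches of the labels, the median desert difference at 24 h was 0.29, 0.32 and 0.42, and at 0 h -0.27, -0.02 and -0.28.

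The size of the difference went with level and with base composition. With the desert DHS in 4 bins of like number by level, the median difference at 24 h was 0.65 in the lowest bin (up to 3.11) and 0.43, 0.21 and 0.12 in the bins above. Near-gene intergenic DHS within the same limits gave 0.52, 0.33, 0.15 and -0.05. By GC content the desert medians were 0.65, 0.41, 0.22 and 0.13 from the lowest to the highest bin, and those of near-gene intergenic DHS 0.52, 0.27, 0.12 and -0.04. The desert median was the higher of the pair in each of these bins. When the trends of each library with level, GC content and width were taken out, the median desert difference was 0.04 at 24 h, 0.03 at 12 h and -0.01 at 0 h, and after quantile normalization it was 0.11, 0.09 and -0.07. The shares that level, composition and distance from genes have in the shift cannot be told apart here.

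Called DHS, meaning those with a limma adjusted p below 0.05 over all 52788 DHS, were few from 2 h on. At 2 h, 1 of 633 desert DHS was higher in the Ikaros line and 0 lower (0.170% and 0.0246% of all DHS). The 6 h libraries again gave 1 and 0 (0.422% and 0.155%). The 12 h libraries gave 8 and 0 (0.887% and 0.428%) and those of 18 h gave 4 and 0 (0.500% and 0.199%). For 24 h the counts were 7 and 1 (0.809% and 0.517%). The desert shares for higher calls, 0.158%, 0.158%, 1.26%, 0.632% and 1.11%, lay near those of all DHS. At an unadjusted limma p under 0.05 the desert DHS numbered 73, 77, 124, 103 and 125 (11.5%, 12.2%, 19.6%, 16.3% and 19.7%), against 10.0%, 13.8%, 15.8%, 13.1% and 14.7% of all DHS. The calls were 22 in all and fell on 15 DHS, of which 14 were higher and 1 was lower in the Ikaros line, and 8 were narrow. Over all DHS, too, higher calls outnumbered lower ones at each of these times. Pooled counts and repeated calls were not counted over all DHS, so those of the desert DHS, here and below, have no share to be set against. With the replicate block, 5 of the 12 h calls and 5 of the 24 h calls remained, all higher. With the level, GC and width trends removed, 4 of the 22 calls remained, on 4 DHS, and the higher and lower counts were 1 and 1 at 12 h, 0 and 0 at 18 h and 0 and 1 at 24 h. At 24 h the count became 3 and 2 without control replicates 4 and 6, and 3, 2 and 3 without Ikaros replicates 4, 5 and 6. At 12 h it became 4 without control replicate 5 and 3 without any Ikaros library, and at 18 h 1, 2 and 2 without Ikaros replicates 4, 5 and 6. At 2 h and 6 h it became 0 without any Ikaros library of that time, 2, 9 and 8 without control 2 h replicates 4, 5 and 6, and 4 and 2 without control 6 h replicates 4 and 5.

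**Figure D3:**
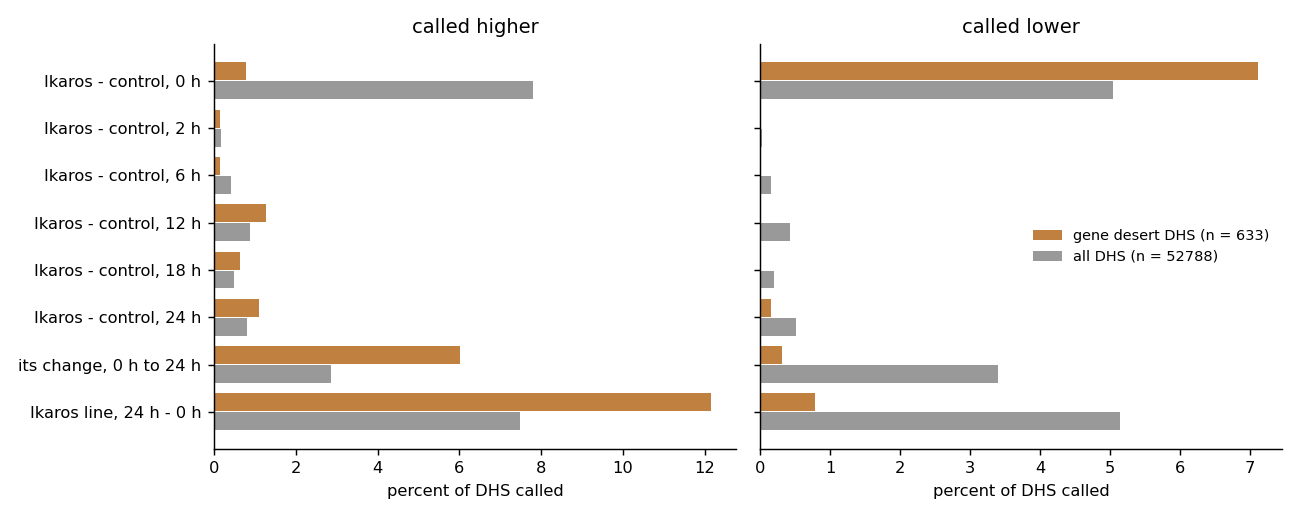
Percent of DHS called higher (left) and lower (right) by limma at an adjusted p below 0.05 in 8 comparisons, for the 633 gene desert DHS (brown) and all 52788 DHS (grey). The desert bars stand above the grey ones for lower calls at 0 h (7.11% against 5.04%) and for higher calls in the Ikaros line from 0 h to 24 h (12.2% against 7.47%), and far below them for higher calls at 0 h (0.790% against 7.81%).

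Called at 2 or more times were 6 DHS, all higher in the Ikaros line. The most frequent, chr6:26704527-26704661, lies between the pseudogene Gm42474 and the snRNA gene Gm24691, 895 kb from Pot1a, a telomere protein gene, and holds the PU.1 core. Its levels in the control line were 1.58, 1.43 and 2.24 at 12 h, 1.56, 0.62 and 1.69 at 18 h and 2.25, 1.53 and 1.32 at 24 h. In the Ikaros line they were 3.52, 3.30 and 3.13, then 3.55, 3.33 and 3.41, then 3.19, 4.07 and 3.34. At all 3 times the Ikaros values were above the control values, whereas at 0 h they overlapped (1.87, 3.45 and 3.79 against 2.46, 2.85 and 2.99). The log2 difference was 1.57 ± 0.39 (SE; limma adjusted p = 0.0390) at 12 h, 2.14 ± 0.39 (0.00590) at 18 h and 1.84 ± 0.39 (0.0172) at 24 h. Under the replicate block the 12 h value had a limma adjusted p of 0.0521. Of 14 refits under the alternatives, 1 kept the call at 12 h, 7 that of 18 h and 8 that of 24 h.

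The neighbouring DHS at chr6:26713278-26713800 is in the same desert, 522 bp wide, and carries the Ikaros core, the Ebf1 core and the PU.1 core. Its control values were 2.53, 2.44 and 2.29 at 12 h and 2.62, 2.82 and 2.10 at 24 h, and its Ikaros values 3.64, 3.38 and 3.69, and 3.97, 3.54 and 3.73. No values overlapped at these times. At 0 h the lines did overlap, with 2.835, 2.94 and 3.05 in the control line and 2.55, 3.72 and 3.72 in the Ikaros line. The differences at 12 h and 24 h were 1.15 ± 0.27 (limma adjusted p = 0.0314) and 1.23 ± 0.27 (0.0210), and each call held in 3 of 14 refits.

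The narrow DHS at chr14:110892992-110893121, which holds an AP-1 match and lies 138 kb from Slitrk6, a neuronal membrane protein gene, was also called at 12 h and 24 h. In the control line it was 1.93, 1.81 and 2.22 at 12 h and 2.03, 2.11 and 2.53 at 24 h, and in the Ikaros line 4.05, 4.12 and 4.18 and 4.27, 3.98 and 3.93. The differences were 2.13 ± 0.34 (limma adjusted p = 0.00371) and 1.84 ± 0.34 (0.00575), and the calls held in 10 and 11 of 14 refits. At 0 h the Ikaros values were below the control values (2.46, 2.62 and 2.30 against 3.39, 2.77 and 3.24), a difference that was not called. At 6 h the order was that of 0 h, again without overlap, with 4.37, 4.08 and 4.30 in the control line and 3.65, 3.53 and 2.93 in the Ikaros line, and that difference was not called. The control line thus had its highest level at 6 h.

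The DHS at chr4:28176712-28177221, whose repetitive sequence holds the Ikaros core on both strands, is 636 kb from Epha7, an ephrin receptor gene. Its values at 24 h were 3.72, 3.84 and 3.96 in the control line and 5.22, 5.27 and 5.36 in the Ikaros line, and at 12 h 2.44, 3.96 and 3.90 against 5.21, 5.15 and 4.89. The differences were 1.44 ± 0.27 (limma adjusted p = 0.00615) and 1.65 ± 0.27 (0.00394), with no overlap at either time, and the calls held in 12 and 11 of 15 refits. At 0 h the lines overlapped, with 5.31, 4.62 and 4.82 against 5.43, 5.31 and 4.77.

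At chr2:178710748-178710883, in the desert beside Cdh26, the control values were 1.69, 2.42 and 2.18 at 12 h and 2.46, 2.71 and 2.49 at 24 h, and the Ikaros values 3.90, 4.03 and 3.58, and 3.82, 4.08 and 3.94. The differences were 1.74 ± 0.30 (limma adjusted p = 0.00524) and 1.39 ± 0.30 (0.0174), and the calls held in 10 and 5 of 14 refits. All Ikaros values were above all control values at both times, while at 0 h they were below them, with 3.88, 3.75 and 4.37 in the control line and 3.39, 2.95 and 3.31 in the Ikaros line (-0.78 ± 0.30, limma adjusted p = 0.0792). The last of the 6, chr1:30584787-30585288, 278 kb from Phf3, had 1.59, 3.61 and 2.83 against 4.46, 4.03 and 3.91 at 24 h, a difference of 1.45 ± 0.38 (limma adjusted p = 0.0479), and one of 1.52 ± 0.38 (0.0390) at 12 h. Its groups did not overlap at 24 h, though control replicate 4 stood lower than the other two, and with the replicate block that difference had a limma adjusted p of 0.0560. The calls held in 2 of 14 refits at 24 h and 4 of 14 for 12 h. Of the 6, those on chromosomes 14 and 1 were called higher within the Ikaros line from 0 h to 24 h (1.60 and 1.59). Not called in that comparison were those on chromosome 4 (0.11), chromosome 2 (0.73) and chromosome 6 (0.49 and 0.42). The control line changed by -0.91, -0.58, -1.08, -1.445, -1.07 and -0.42 at these sites in the order given, and none of its changes was called.

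**Figure D4:**
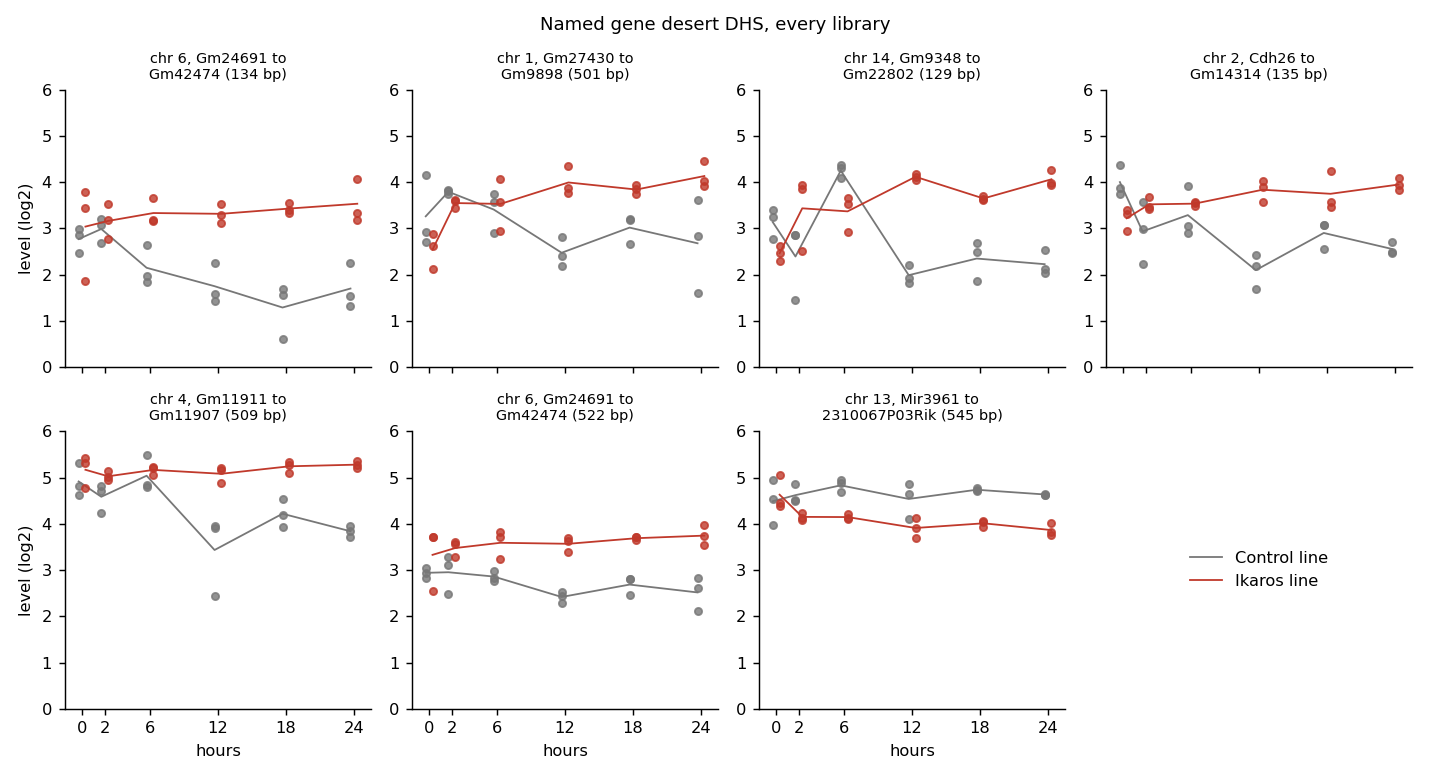
Level (log2 normalized read density) in every library by hours of the 6 desert DHS called at the most times and of the DHS between Mir3961 and 2310067P03Rik; points are libraries, lines join group means, grey is the control line and red the Ikaros line. In the first 6 panels the Ikaros libraries lie above all control libraries at 24 h, and in the last (3.75 to 4.01 against 4.62 to 4.65) below them.

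The DHS that was lower in the Ikaros line lies in the chromosome 13 desert, at chr13:82899598-82900143, and holds the Ikaros core. It is 604 kb from Mef2c, the gene of a transcription factor used in early B cell development, and 165 kb from the non-coding gene 2310067P03Rik. In the control line it was at 4.63, 4.62 and 4.65 at 24 h and in the Ikaros line at 4.01, 3.83 and 3.75, a difference of -0.77 ± 0.20 (limma adjusted p = 0.0479) whose call held in 3 of 15 refits. At 0 h the lines overlapped, with 4.94, 4.55 and 3.98 against 4.38, 5.06 and 4.46. Within the Ikaros line the level fell by 0.77 ± 0.20 from 0 h to 24 h (limma adjusted p = 0.0140), and values without overlap and below the control line were already present at 2 h (4.24, 4.09 and 4.12 against 4.86, 4.52 and 4.48), where they were not called. With the level, GC and width trends removed the 24 h difference was -1.09 (limma adjusted p = 0.00529, with 0.00529 to 0.354 over all alternatives and 0.0644 with the replicate block).

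The other 7 DHS of that desert were not called. Of them 6 had a positive 24 h difference, from 0.24 ± 0.50 at chr13:82871782-82871920 to 1.18 ± 0.59 at chr13:82962469-82962598, and 1 a negative one, -0.41 ± 0.28 at chr13:82949646-82949810. The nearest neighbours on either side of the lower one, at chr13:82892851-82893351 and chr13:82909102-82909621, were at 0.49 ± 0.29 and 0.40 ± 0.19. In the chromosome 2 desert beside Cbln4, 6 of 9 DHS were negative at 24 h and none was called, and in those beside Tbc1d32 and Cdh26 6 of 7 and 7 of 7 were positive. In the desert beside Antxr2, 5 of 8 were positive and 1 was called, at chr5:97841798-97842624 (0.97 ± 0.25, limma adjusted p = 0.0443, or 0.0575 with the replicate block).

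**Figure D5:**
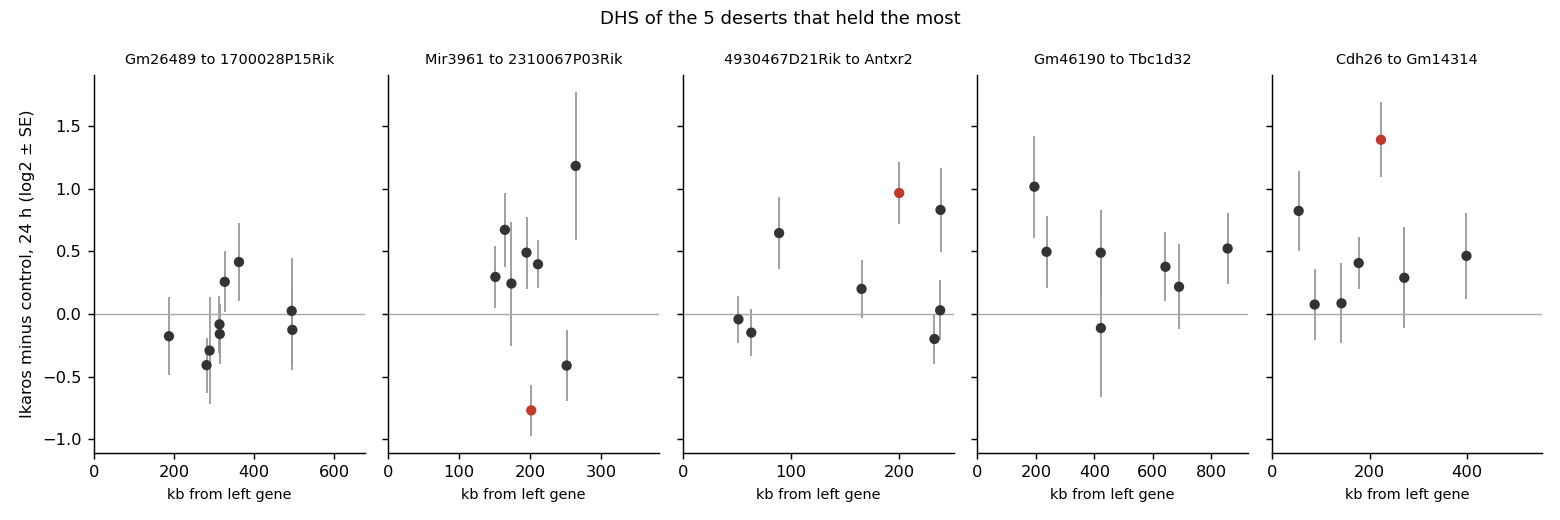
Ikaros minus control difference at 24 h (log2, with the limma SE) of the DHS in the 5 deserts that held the most, against distance from the gene on the left (kb); red points were called at a limma adjusted p below 0.05. Called were 1 DHS lower in the chromosome 13 desert (-0.77), 1 higher in the Antxr2 desert (0.97) and 1 higher in the Cdh26 desert (1.39).

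The remaining 8 desert DHS of the 15, the one beside Antxr2 among them, were called once each. At 2 h it was chr16:5467760-5467890, in the desert before Rbfox1, with 2.41, 0.45 and 3.02 in the control line and 4.03, 4.02 and 4.15 in the Ikaros line (2.11 ± 0.41, limma adjusted p = 0.0226). The control line was at 3.88, 4.25 and 4.57 at 0 h and 4.69, 4.13 and 4.00 at 6 h, so the 2 h control libraries stood apart from those before and after. At 6 h it was chr12:16384543-16384687, in the same desert as the highly open site beside Lpin1, with 3.61, 3.68 and 2.77 against 4.89, 4.34 and 4.48 (1.22 ± 0.27, limma adjusted p = 0.0330). That more open neighbour had a difference of 0.19 at the same time.

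At 12 h and 18 h the single calls were chr2:48001892-48002028 (1.93 ± 0.50, 812 kb from Acvr2a, an activin receptor gene), chr1:111660204-111660709 (1.24 ± 0.33), chr13:71342937-71343067 (2.00 ± 0.44), chr15:94213542-94213672 (1.57 ± 0.31) and chr9:23665938-23666438 (0.91 ± 0.21). The last lies in the Bmper desert. With the replicate block the first 2 of these had a limma adjusted p of 0.0620 each. At chr13:71342937-71343067 the control values at 18 h were 1.95, 0.99 and 1.66 and the Ikaros values 2.91, 4.06 and 3.63. At chr2:48001892-48002028 control replicate 4 at 12 h was at 0.56 and the other two at 3.02 and 3.70, against 4.58, 4.26 and 4.22 in the Ikaros line. The groups did not overlap at either site.

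Before the time course, at 0 h, lower calls outnumbered higher ones. Of the desert DHS 45 (7.11%) were lower in the Ikaros line and 5 (0.790%) higher, where 5.04% and 7.81% of all DHS were called. The 0 h cells were collected separately. By the labels both lines have 0 h libraries in the same batches, so this comparison lies within that collection. Where 0 h is set against later times, the separate collection and the time cannot be told apart. At chrX:65734730-65734860 the 0 h values were 4.08, 2.16 and 3.27 in the control line and 0.24, 1.69 and 1.50 in the Ikaros line (-2.02 ± 0.58, limma adjusted p = 0.0205). At chr7:115453421-115453548, in the desert beside Sox6, a developmental transcription factor gene, they were 3.70, 3.87 and 3.85 against 0.02, 1.73 and 3.67 (-2.00 ± 0.49, 0.00844). At chr5:41006817-41006964, which carries the CTCF consensus, they were 4.15, 3.57 and 3.31 against 2.08, 0.15 and 3.03 (-1.92 ± 0.48, 0.00884). In each of them at least 1 Ikaros library was at 0.24 or lower while another was higher, and at chr7:115453421-115453548 replicate 6 came near the control line.

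The higher sites at 0 h were less extreme. At chr10:55319856-55319986, in the desert before Tbc1d32, the control values were 1.82, 2.07 and 2.39 and the Ikaros values 3.74, 4.15 and 2.66 (1.42 ± 0.41, limma adjusted p = 0.0217). At chr10:47775122-47775252 the difference was 1.23 ± 0.40 (0.0385), and at chr2:171633271-171633490, in the desert near Cbln4, 0.76 ± 0.24 (0.0370). The 50 calls at 0 h became 30 without control replicate 4, 13 without control replicate 6 and 17 without Ikaros replicate 4. After quantile normalization 6 were higher and 18 lower, and with the trends removed 7 and 9.

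From 0 h to 24 h the Ikaros line gained signal at desert sites. Called higher at 24 h were 77 DHS (12.2%, against 7.47% of all DHS) and called lower 5 (0.790%, against 5.14%). The median change was 0.33 over the 633 and 0.04 over all DHS. Near-gene intergenic DHS had 0.19, DHS inside genes 0.18 and promoter DHS -0.25, so a gain was shared by the classes away from promoters. The separate collection of the 0 h cells cannot be told apart from time in this comparison. In the control line 0 desert DHS were called between the same times (0% of all DHS, limma), with a median change of -0.23 and 45 desert DHS (7.11%, against 7.35% of all DHS) at an unadjusted p under 0.05. The 77 had a median level of 3.79 and 22.1% held the CTCF consensus, against 3.46 and 11.2% in the other 556. Desert DHS with the CTCF letters also had the higher level and the smaller replicate SD, as given above. The CTCF share of called DHS was not taken over all DHS. Without Ikaros 0 h replicate 4 the 82 calls became 47, and without Ikaros 24 h replicates 4, 5 and 6 they became 39, 38 and 42. The split of 77 and 5 became 49 and 16 after quantile normalization and 24 and 19 with the trends removed. Between 2 h and 24 h 0 desert DHS were called in either line (0% of all DHS in the Ikaros line and 0.00947% in the control line). At an unadjusted limma p under 0.05 the desert DHS numbered 0 and 42 (0.0701% and 6.52% of all DHS). With no change at all, a share near the threshold of 0.05 would pass. The Ikaros line lay far below that share, so its count does not show that nothing changed. The 0 calls of the control line became 1, 3 and 3 without its 2 h replicates 4, 5 and 6. The median change from 2 h to 24 h was 0.13 in the Ikaros line and -0.05 in the control line.

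The 3 most positive changes in the Ikaros line were at sites described at 0 h above, and both comparisons use the same Ikaros 0 h libraries. At chrX:65734730-65734860 the Ikaros values at 24 h were 3.82, 4.13 and 3.52 (2.68 ± 0.58, limma adjusted p = 0.00432), at chr5:41006817-41006964 they were 4.44, 4.26 and 4.14 (2.52 ± 0.48, 0.00182), and at chr7:115453421-115453548 4.26, 4.54 and 4.15 (2.51 ± 0.49, 0.00235). The control values at 24 h were 3.19, 2.33 and 2.92 at the first of these and 2.73, 4.29 and 3.89 at the second, where the lines overlapped. The most negative were chr9:81225106-81225235 (-1.53 ± 0.49, 0.0367), which is masked as repeat over its whole length, chr2:171620640-171621177 (-0.78 ± 0.24, 0.0327) and the chromosome 13 site described above.

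The difference between the lines itself changed from 0 h to 24 h at 40 desert DHS, 38 of them upwards (6.00%, against 2.85% of all DHS) and 2 downwards (0.316%, against 3.40%). The median change was 0.57 over the 633 desert DHS, 0.31 over near-gene intergenic DHS, -0.42 over promoter DHS and 0.12 over all DHS. This contrast shares its libraries with the 0 h and 24 h ones and is not a further measurement. The count became 63 without control 0 h replicate 5, 25 and 18 without control 0 h replicates 4 and 6, 15 and 25 without control 24 h replicates 4 and 6, and 15, 13 and 23 without Ikaros 24 h replicates 4, 5 and 6. The 2 downward changes were at the open sites chr9:23570089-23570589 (-0.77 ± 0.22, limma adjusted p = 0.0346) and chr6:51168147-51168309 (-1.06 ± 0.26, 0.0212), the second named after its value was seen. After quantile normalization the counts were 12 upwards and 2 downwards, and with the trends removed 1 and 1.

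Desert DHS whose nearest protein-coding gene was on a list drawn up for the B lineage were described apart. They lay 164 to 1124 kb from the TSS of that gene. Of 54 genes on that list, 6 were the nearest protein-coding gene of 22 desert DHS: Mef2c (9 DHS), Tox (5), Zeb2 (4), Satb1 (2), Gata3 (1) and Myc (1). Tox, Zeb2 and Gata3 are transcription or chromatin factors of lymphoid cells, Satb1 organizes chromatin in them, and Myc drives growth. From 2 h to 24 h, 1 of the 22 was called, the chromosome 13 site near Mef2c, where 15 of all 633 desert DHS were. At 0 h 0 of the 22 were called, against 50 of the 633. The median difference at 24 h was 0.58 over the 22 and 0.36 over all 633. Between 0 h and 24 h the median change over the 22 was 0.03 in the Ikaros line and -0.35 in the control line. Over all 633 it was 0.33 and -0.23. The larger difference of the 22 thus came without a larger gain in the Ikaros line.

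The 2 DHS at 333 and 350 kb from Satb1 had differences of 1.37 and 1.28 at 24 h (limma adjusted p = 0.104 and 0.0515), and were named after their values were seen. From 0 h to 24 h they changed by 0.25 and 0.73 in the Ikaros line and by -0.98 and -0.27 in the control line. None of these changes was called. The 4 near Zeb2, 858 to 980 kb away, lay between 0.57 and 0.98, and the 5 near Tox between -0.19 and 0.62. The site near Gata3, 1124 kb away, was at 0.82 (0.136) and was the only one of the 22 called for the change from 0 h to 24 h (1.42, limma adjusted p = 0.0325). The DHS 414 kb from Myc, at level 3.53, was at 0.28 (0.778).

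Replicates lay closer together in the Ikaros line from 2 h on. The median SD of a desert DHS within a group was 0.22 to 0.27 in the Ikaros line from 2 h to 24 h, against 0.33 to 0.52 in the control line, and 0.46 and 0.41 at 0 h. From 2 h on the other classes had the same order of the lines. Near-gene intergenic DHS had 0.21 to 0.23 against 0.29 to 0.43, and promoter DHS 0.15 to 0.18 against 0.20 to 0.32. The deposited values had passed a noise correction (ARSyN), and its part in this difference was not tested. When libraries were weighted by line, 154 desert DHS were higher and 18 lower in the Ikaros line at 24 h than at 0 h, against 77 and 5 with a shared spread. Over all DHS 15.2% were then higher and 11.4% lower, so the counts rose in the whole table.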

How the data were processed

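Open chromatin was measured by DNase-seq in 36 libraries, 3 in each of 12 groups, grouped by the labels. Per the methods of the study, the authors mapped trimmed read pairs to mm10 with Bowtie2 (Bowtie in the submitters' processing notes), called narrow and broad peaks per replicate with HOMER, merged them, counted reads per DHS with bedtools, filtered low DHS, scaled by RPKM and TMM and applied ARSyN, which estimates and removes systematic noise. Whether it was given the groups is not stated in the sources used here, and values of different libraries may not be fully independent. Tool versions are not given in the sources used here. The deposited values are log2 of that normalized density. The base was settled from the values, since base 2 gives 369500 to 432800 RPM over the DHS of a library, whereas base e would exceed a whole library. Read counts are not used here, and the labels give only a minimum of about 20 M reads per library, so the depth behind a value is unknown, no counting interval is given, and the 3 libraries per group limit the precision.

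Distances, gene bodies and classes came from GENCODE vM21 basic, and GC content, soft-masked share, motifs (in 150 bp around the centre, both strands) and printed sequences from the GRCm38 genome of RefSeq. Coordinates are as deposited. Whether starts count from 0 or 1 is not given, which can shift a sequence by 1 bp. No DHS was filtered out here. Differences were fitted with limma 3.58.1 in R 4.3.3 (12 group means, all 36 libraries, eBayes with trend) over all 52788 DHS, two-sided, with Benjamini-Hochberg adjustment and a threshold of 0.05, in 11 comparisons. The fit was run on simulated data with independent normal noise, a single spread per DHS and a large change added to some DHS. The simulation had neither the noise correction nor the unlike spread of the lines, so it cannot tell how the fit behaves under them.

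Replicates 4, 5 and 6 carry batches 11, 12 and 13 in the labels, so that equal numbers mark a shared batch and pair the samples. The deviations of same-numbered libraries from their group means had a median correlation of -0.018 over desert DHS (198 pairs). The main fit had no block, and the replicate block was an alternative. Other alternatives were quantile normalization, removal of each library's trends with level, GC content and width, a fit of the compared groups only, leaving out the DHS of lowest level, weights by line, leaving out replicates or libraries, other distances, and a 300 bp motif window. The members, the gene lists and the tests were chosen with earlier results of these data known. Named are the 10 highest desert DHS, the 3 most positive and 3 most negative called ones per comparison with groups that do not overlap, the 5 farthest from a TSS, the 5 deserts with the most DHS, the DHS called at the most times (up to 6), and called DHS beside genes of the B-lineage list; the other DHS called from 2 h to 24 h and the site of each printed neighbour were named after their values were seen.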

Additional observations from a re-analysis of the deposited data

Results flagged for a closer look

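At 12 of the desert DHS given with values, the difference between the lines changed from 0 h to 24 h by the limma test of that change itself, 10 upwards and 2 downwards. It rose by 3.03 ± 0.81 (log2, SE; limma adjusted p = 0.0289) at chrX:65734730-65734860, by 2.73 ± 0.69 (0.0218) at chr1:12864170-12864289, which lies 127 kb from Slco5a1, and by 2.51 ± 0.69 (0.0318) at chr7:115453421-115453548. At the site on chromosome 1 the Ikaros values went from 0.38, 2.25 and 2.71 at 0 h to 3.92, 3.98 and 3.87 at 24 h, and the control values from 3.86, 3.47 and 2.85 to 3.25, 2.81 and 2.35, so that the lines exchanged their order. The change was -0.77 ± 0.22 (0.0346) at chr9:23570089-23570589 in the Bmper desert, where the Ikaros values fell from 5.60, 5.15 and 5.40 to 4.59, 4.51 and 4.75 and the control values stayed between 4.75 and 5.28 at both times. At chr6:51168147-51168309 the change was -1.06 (0.0212). It was 2.56 at chr5:41006817-41006964, 2.51 at chr14:110892992-110893121 and 2.47 at chr2:48001892-48002028 (limma adjusted p = 0.0263, 0.00688 and 0.0362). At chr2:178710748-178710883 it was 2.17, at chr1:30584787-30585288 2.17, at chr15:94213542-94213672 1.67 and at chr2:8754085-8754586, the site nearest to Gata3, 1.42 (0.00717, 0.0201, 0.0259 and 0.0325). Under the alternatives none of the first 4 changed sign, and their calls held in 12 of 20 fits (chromosome 1), 8 of 20 (X), 7 of 21 (7) and 8 of 21 (9). The part of the separate collection of the 0 h cells was not tested.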

How the results depend on the processing

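The alternatives changed most counts of called desert DHS. The replicate block, where the number pairs the samples, gave 5 at 12 h and 5 at 24 h instead of 8 and 8, and also ended 6 of the named calls (limma adjusted p 0.0521 to 0.0644). Quantile normalization gave 24 instead of 50 at 0 h, 0 instead of 1 at 2 h, 3 instead of 8 at 12 h, 1 instead of 4 at 18 h, and 14 instead of 40 for the change between 0 h and 24 h. Removing the trends with level, GC content and width gave 16 at 0 h, then 2, 0 and 1 at 12, 18 and 24 h, 2 for that change and 43 for the Ikaros line from 0 h to 24 h (82). Fitting only the compared groups, which leaves fewer samples for the spread, gave 0 at 0, 2, 6, 12 and 18 h and for the change, and 20 for the Ikaros line. Without the DHS of lowest level, 1 was called at 12 h, 1 at 18 h and 1 at 24 h, with fewer DHS tested. Weights by line gave 172 for the Ikaros line. The causes of these changes in count were not tested.

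Leaving out a replicate number or a library gave 9 to 60, 0 to 9, 0 to 4, 0 to 11, 0 to 4 and 0 to 7 at the successive times, 4 to 63 for the change, 15 to 83 for the Ikaros line, 0 to 3 for the control line from 2 h to 24 h, and 0 to 0 for the other two changes within a line. Without replicate 5 in all groups, 0 of the 22 calls from 2 h to 24 h remained. Of 573 refits of the 38 named calls, 265 kept the call, 308 lost it and none changed sign.

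The number of desert DHS was 2202 at 50 kb, 124 at 200 kb and 4535 with protein-coding genes only. Their level was below that of other DHS between genes by -0.34 (log2), -0.26 and -0.23 at 100, 50 and 200 kb and -0.30 with protein-coding genes only. The share called at 24 h was 1.26% at 100 kb, 0.806% at 200 kb and 1.92% with protein-coding genes only. Over all DHS 0.809% were called higher and 0.517% lower at that time. A 300 bp window raised the share with the Ikaros core from 12.6% to 23.1% and left CTCF at 12.5%. The depth of each library being unknown beyond a stated minimum, a DHS that was not called may differ by less than these libraries can show.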

Other observations

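Desert DHS with the PU.1 core or the Runx core, letters bound by factors of blood cell lineages, had medians near 0 in the Ikaros line between 0 h and 24 h. The change was 0.08 for the 69 with the PU.1 core, against 0.35 for the 564 without it, and 0.02 for the 61 with the Runx core, against 0.36 for the 572 without. At 0 h the Ikaros minus control medians were 0.02 and 0.01 with these letters and -0.25 and -0.24 without. For the CTCF consensus the order was the opposite, with 0.56 for 79 DHS and 0.28 for 554 over 0 h to 24 h in the Ikaros line, and -0.41 and -0.17 at 0 h. For the Ikaros core the values were 0.18 for 80 DHS and 0.35 for 553. At 24 h the Ikaros minus control medians were 0.41, 0.29, 0.22 and 0.34 with the PU.1, Runx, CTCF and Ikaros letters. These are descriptions without a test, and DHS with different letters also differed in level.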
